A study of Mus musculus with 12 samples.

Results

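The comparison described here sets hair follicle stem cells of an early growth substage (anagen II) against bulge stem cells of later growth (anagen). It rests on 3 of the 12 libraries of a mouse RNA sequencing study of the transcription factor Foxc1. The anagen II group is 1 library, from a Shh-Het female of the Agouti strain at about postnatal day 26. Its genotype is given in the cell type label, whereas its title calls the library WT. The later anagen group, called Het below, is 2 libraries from FOXC1-Sox9CreER-heterozygous males of a Black Swiss/ C57BL/6 mix at postnatal day 30. Sox9CreER is a Cre recombinase driven from Sox9, a gene of the bulge, and it acts only after tamoxifen. Mice that carried it were given tamoxifen, which also switches on a YFP reporter. All cells were sorted by flow cytometry from dorsal skin, and libraries were made with the Illumina TruSeq mRNA kit. Substage therefore changed together with genotype, sex, strain, age and tamoxifen, and their parts in any difference below cannot be told apart.

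The rows compared were chosen by their group names in the authors' deposited joint table, which holds 23735 gene models and 1 FPKM value (fragments per kilobase of transcript, scaled to the number of mapped fragments) per group. The Het value is thus 1 pooled value for 2 libraries. No spread between animals can be given, no test was run, and each ratio is a description of these libraries. Sequencing depth is unknown because the table holds no counts. After small RNA symbols and failed rows were left out, 22446 gene symbols remained. Of these, 12253 had at least 1 FPKM in either group and are called measured.

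The hair follicle cycles between rest (telogen), growth (anagen) and regression. Its stem cells sit in the bulge of the outer root sheath and, below it, in the hair germ. At the start of growth, WNT, FGF and TGF-beta signals and falling BMP activity bring first the germ and then the bulge into division, and Sonic hedgehog made by the progeny keeps the bulge dividing. The bulge then returns to quiescence while the matrix below goes on making the hair shaft and the root sheaths. Anagen II lies early in this sequence.

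Of the 12253 measured genes, 11.9% differed by 2-fold or more on the scale of FPKM + 1, which is the threshold used throughout. In Het cells 558 genes (4.55%) were higher, and in anagen II cells 900 genes (7.35%) were higher. The median log2 ratio of Het over anagen II was 0.08, and the 5th and 95th percentiles were -1.25 and 0.97. At 4-fold or more, 75 genes were higher in Het and 163 in anagen II cells. The balance turned among the 853 genes with at least 100 FPKM in either group, of which 82 (9.61%) were higher in Het and 67 (7.85%) in anagen II cells. Between the other pairs of groups in the same table, the share of genes past 2-fold ran from 3.51% for the anagen iKO and Het groups to 21.9% for the anagen II and second telogen WT groups.

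**Figure D1:**
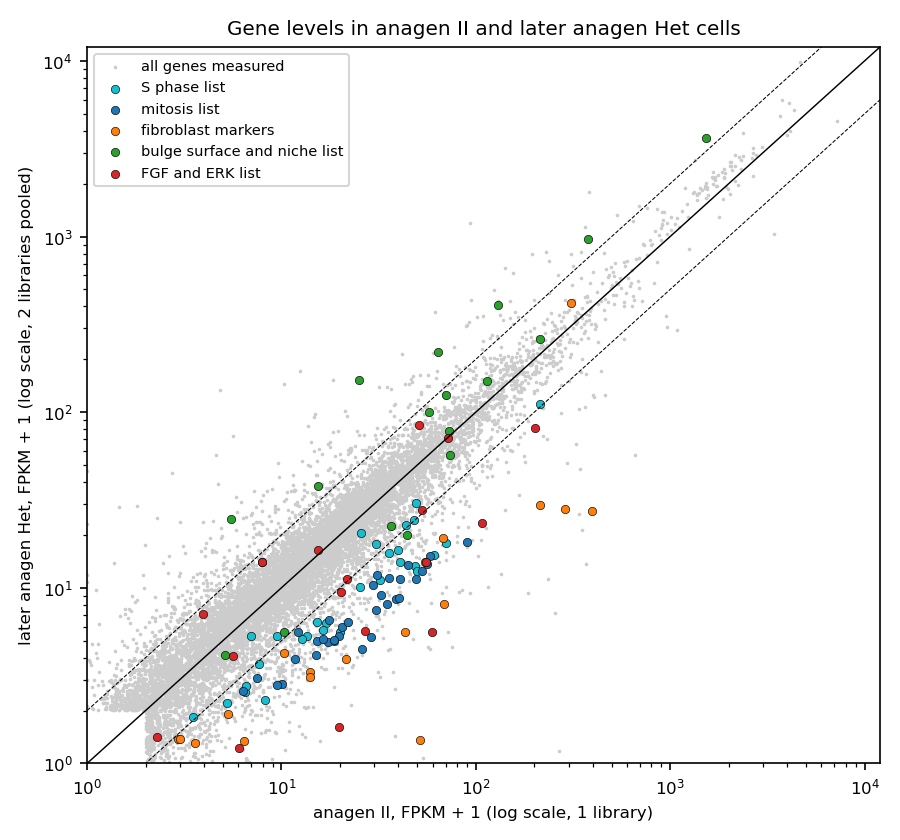
FPKM + 1 of each measured gene in anagen II cells (horizontal axis, 1 library) and in later anagen Het cells (vertical axis, 1 pooled value of 2 libraries), both on log scales. The solid line marks equal levels and the dashed lines 2-fold differences. The mitosis list (blue) lies wholly below the lower dashed line, 17 of 18 fibroblast markers (orange) lie below it, and 7 members of the bulge surface and niche list (green) lie above the upper one.

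The sorted cells carried the bulge genes in both groups. Cd34, a surface protein used to sort bulge cells (chromosome 1, 196765015 to 196803153, mm9), stood at 129 FPKM in anagen II and 408 in Het cells, 3.15-fold higher in the latter. The basal keratin Krt14 had 1524 and 3630 FPKM. Both are high values in both groups, and both genes were past the threshold in favour of Het cells. The bulge factors Sox9 (60.8 and 74.9 FPKM), Lhx2 (202 and 196) and Nfatc1 (19.7 and 39.5) were within 2-fold on the same scale. So were the integrin Itga6 (56.3 and 99.2) and Lgr5 (72.9 and 55.9), a receptor that strengthens WNT signalling. Krt5 and Krt15, the other basal and bulge keratins of the marker list, had 3948 and 3294 FPKM in anagen II cells, but their Het values failed in the authors' estimate and are not used. Foxc1 itself was nearly equal, with 22.1 FPKM in anagen II and 22.5 in Het cells. It lies on chromosome 13, from 31898515 to 31902504 in mm9.

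The sex-linked genes followed the labels. Xist, the RNA that coats the inactive X chromosome, had 52.3 FPKM in the library from a female and 0.0802 in the Het group. The Y-linked genes Eif2s3y, Ddx3y, Kdm5d and Uty had 45.1, 22.2, 10.8 and 9.80 FPKM in Het cells, and none was above 0.00379 in anagen II cells. Without all genes of chromosomes X and Y, 535 genes were higher in Het and 876 in anagen II cells.

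Markers of dermal cells also moved with the groups. Of 18 measured fibroblast and dermal papilla markers, 17 were higher in anagen II cells, against 7.35% of all measured genes. The median log2 ratio of these markers was -2.13. Pdgfra, a receptor that defines dermal fibroblasts, had 50.3 FPKM in anagen II and 0.356 in Het cells. Col1a1 had 395 and 26.2 FPKM, and Dcn, which codes for a matrix proteoglycan, 66.4 and 18.2. The markers were thus present in anagen II cells and low in Het cells. The exception was Sparc, with 308 and 418 FPKM, a gene that had at least 283 FPKM in all 7 groups. The summed FPKM of the list was 1556 in anagen II and 556 in Het cells, against 3024 in first telogen cells from a Shh-Het female of the same strain at about day 23. The part of dermal RNA in the other differences was not tested, and in bulk RNA fewer cells of a type and less RNA per cell cannot be told apart.

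**Figure D2:**
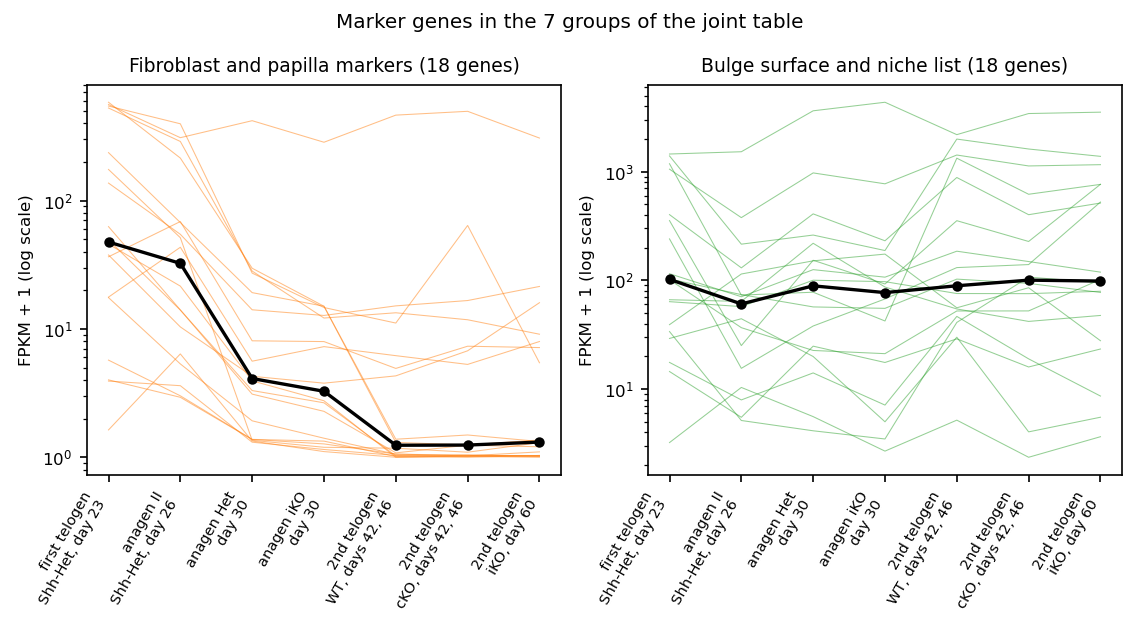
FPKM + 1 (log scale) of the measured fibroblast and papilla markers (left) and of the bulge surface and niche list (right) in the 7 groups of the joint table. Each thin line is 1 gene and the black line is the median. The fibroblast markers run highest in the first telogen and anagen II libraries, while the median of the bulge list stays between 59.6 and 101 FPKM in all 7 groups.

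Markers of other cell types were also higher in anagen II cells in part. The share of all measured genes in that direction was 7.35%. Of 12 measured immune markers 4 were higher in anagen II cells, among them the mast cell proteases Mcpt4 (7.90 and 0.0539 FPKM) and Cpa3 (5.53 and 0.0339). The macrophage genes Lyz2 (9.90 and 3.16) and C1qa (5.43 and 2.03) were the other two. Of 10 melanocyte markers 3 were higher in anagen II cells, led by Mlana, a melanosome protein, with 15.6 and 2.45 FPKM. Of 10 endothelial and pericyte markers 2 were higher in anagen II cells, Cldn5 (2.51 and 0.374 FPKM) and Acta2 (254 and 6.18), while the endothelial gene Pecam1 had 2.11 and 1.45 FPKM. Of 7 Schwann cell and nerve markers 3 were higher in anagen II cells, with the neurotrophin receptor Ngfr at 34.9 and 8.14 FPKM. With a pseudocount of 5 FPKM these counts fell to 2 immune markers and 1 marker in each of the other 3 lists. Adipocyte, muscle and red blood cell lists had 2 measured members each. Lpl, Tagln and Hba-a1 were past the threshold in them, the last one in favour of Het cells. Tagln had 369 and 12.7 FPKM. Cnn1, the other measured muscle marker, had 2.09 and 1.64 FPKM and was within 2-fold. The median log2 ratio of the muscle list, -2.49, thus rests on Tagln.

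Every measured gene of both cell cycle lists was lower in Het than in anagen II cells. All 32 mitosis and spindle genes were past the threshold, with a median log2 ratio of -1.83, where 7.35% of all measured genes were past it in that direction. Of 30 DNA replication and S phase genes 21 were past it, with a median of -1.30. The log2 ratios ran from -2.53 for Aurkb to -1.12 for Hmmr in the mitosis list, and from -2.01 for Uhrf1 to -0.31 for Rfc3 in the S phase list.

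In the entry to S phase, the origin licensing factor Cdt1 had 17.7 FPKM in anagen II and 3.98 in Het cells, 4.44-fold lower in the latter. Cyclin E1 (Ccne1) had 7.26 and 1.30 FPKM, and the transcription factor E2f1 had 15.4 and 4.76. These 3 genes act before or at the start of replication, and each was at least 3-fold lower. Of the MCM helicase genes, Mcm6 had 69.0 and 16.9 FPKM and Mcm5 had 47.6 and 12.3, whereas Mcm7 (48.1 and 29.3) was within 2-fold. Rrm2, the regulated subunit of ribonucleotide reductase, had 59.8 and 14.4 FPKM. The maintenance methylation cofactor Uhrf1 had 49.0 and 11.4 FPKM. Pcna, the sliding clamp and the most abundant gene of the list, had 214 and 110 FPKM, just inside the threshold at a log2 ratio of -0.95.

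In mitosis, Aurkb, the kinase of the chromosomal passenger complex, had 24.8 FPKM in anagen II and 3.46 in Het cells, 7.17-fold lower in the latter. Plk1, a kinase of mitotic entry and exit, had 27.8 and 4.23 FPKM, 6.56-fold lower. Ube2c, the ubiquitin-conjugating enzyme of the anaphase-promoting complex, had 88.9 and 17.2 FPKM. The proliferation marker Mki67 had 28.7 and 9.42 FPKM, and Top2a, which untangles chromosomes, 56.9 and 14.2. Cyclin-dependent kinase Cdk1 had 29.6 and 6.52 FPKM, and its partners Ccnb1 and Ccnb2 had 39.9 and 10.2, and 37.6 and 7.66. Het cells retained a level of each of these genes, since the lowest value of the mitosis list there was 1.596 FPKM, for Cenpe.

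The D cyclins and cyclin-dependent kinases behaved otherwise. Of 15 measured genes of that list 2 were higher in anagen II cells and none in Het cells, against 7.35% and 4.55% of all measured genes. Cdkn2c, an inhibitor of Cdk4 and Cdk6, had 25.6 and 7.22 FPKM, and the pocket protein gene Rbl1 had 16.7 and 6.54. Ccnd1 (91.2 and 56.0), Ccnd2 (49.5 and 44.5) and the inhibitors Cdkn1a (31.7 and 45.7) and Cdkn1b (58.5 and 91.6) were within 2-fold.

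Levels in the other groups of the table stand beside these values. The median FPKM of the mitosis list was 26.3 in anagen II cells, 5.44 in Het and 18.2 in anagen iKO cells, in which Foxc1 was ablated in males of the Het strain and day. It was 2.52 in first telogen cells, which share sex, strain and Shh-Het label with the anagen II library. In second telogen it was 1.23 in WT, 7.17 in cKO (K14Cre) and 4.89 in iKO (Sox9CreER) cells. The WT and cKO groups of second telogen each pool a Black Swiss male of day 42 and a Black Swiss female of day 46, and the iKO group pools 2 males of the mixed strain at day 60. The S phase list had the same order in its upper 4 groups, with medians of 21.7 in anagen II, 18.7 in anagen iKO and 9.55 in second telogen cKO cells, then 7.21 in Het cells. These groups also differ in stage, genotype, strain, sex or age, and the comparisons share the anagen II or the Het libraries.

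**Figure D3:**
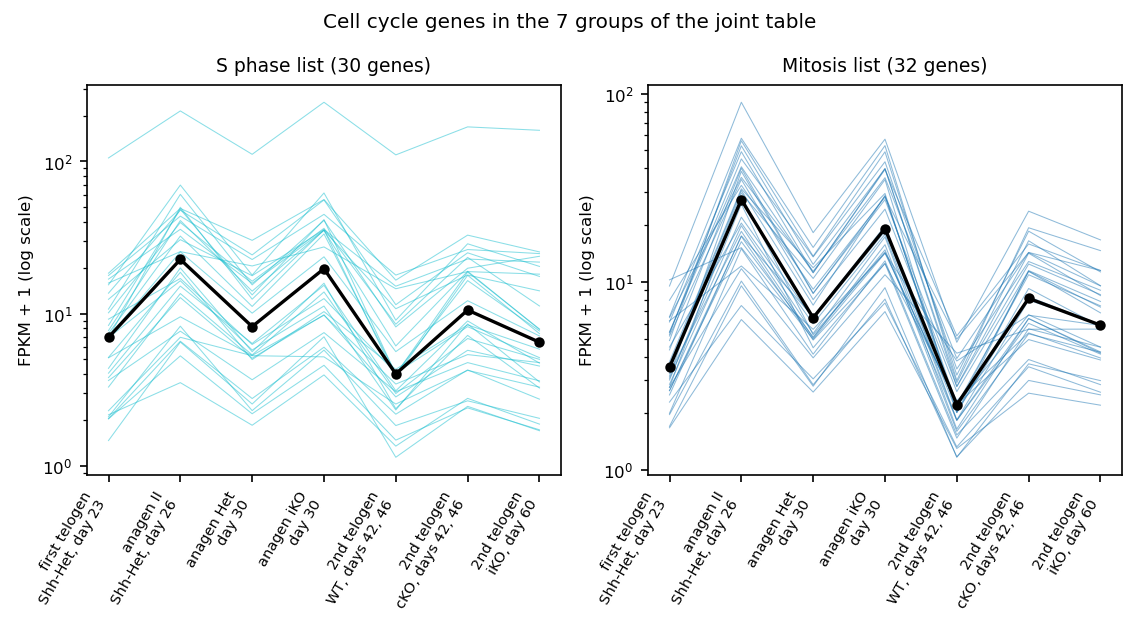
FPKM + 1 (log scale) of the 30 S phase genes (left) and 32 mitosis genes (right) in the 7 groups of the joint table. Each thin line is 1 gene and the black line is the median. Anagen II and anagen iKO cells carry the highest median of both lists, and second telogen WT cells the lowest.

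Promoters of both cell cycle lists were searched for short elements, and 6 are shown here so that the letters behind the counts can be seen. Late cell cycle genes are known for the CHR element (TTTGAA) and nearby CCAAT boxes, and S phase genes for E2F sites (here TTTNNCGC). RefSeq promoters (GRCm38.p6, 250 bases before to 50 after the start) matched 28 of 32 mitosis genes and 24 of 30 S phase genes by symbol. On either strand, TTTGAA was found in 22 of 29 mitosis promoters (75.9%) and 4 of 28 S phase promoters (14.3%), against 17.9% of all 32851 promoters. TTTNNCGC was found in 12 of 28 S phase promoters (42.9%) and 2 of 29 mitosis promoters (6.90%), against 5.17% of all. CCAAT was found in 79.3% of mitosis, 67.9% of S phase and 37.4% of all promoters, and TTTGAA together with CCAAT in 20 of 29 mitosis promoters against 6.95% of all. The motifs describe these windows and are not sites shown to be bound. Below are the last 150 bases before the start for the 3 past-threshold members of each list that had the lowest ratio and a match there, 5′ to 3′ in the gene's direction. Capitals mark TTTGAA or its complement in the first 3 and TTTNNCGC or its complement in the last 3.
Ube2c, chr2:164769779-164769928 (+): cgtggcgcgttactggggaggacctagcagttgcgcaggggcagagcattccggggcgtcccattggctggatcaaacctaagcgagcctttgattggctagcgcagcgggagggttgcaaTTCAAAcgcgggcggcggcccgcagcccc
Cdc20, chr4:118437344-118437493 (-): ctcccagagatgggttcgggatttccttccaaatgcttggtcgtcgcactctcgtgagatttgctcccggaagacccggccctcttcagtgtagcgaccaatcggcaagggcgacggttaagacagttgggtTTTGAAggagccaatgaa
Cdk1, chr10:69352913-69353062 (-): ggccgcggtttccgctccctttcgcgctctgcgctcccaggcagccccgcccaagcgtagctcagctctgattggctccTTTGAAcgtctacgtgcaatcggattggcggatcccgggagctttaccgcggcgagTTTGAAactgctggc
Uhrf1, chr17:56303187-56303336 (+): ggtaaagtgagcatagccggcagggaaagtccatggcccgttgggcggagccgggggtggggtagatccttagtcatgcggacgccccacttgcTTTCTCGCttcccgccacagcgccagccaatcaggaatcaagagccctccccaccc
Mcm6, chr1:128359706-128359855 (-): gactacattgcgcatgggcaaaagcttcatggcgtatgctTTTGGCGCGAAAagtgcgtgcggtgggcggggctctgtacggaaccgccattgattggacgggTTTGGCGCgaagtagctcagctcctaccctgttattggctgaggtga
Mcm5, chr8:75109359-75109508 (+): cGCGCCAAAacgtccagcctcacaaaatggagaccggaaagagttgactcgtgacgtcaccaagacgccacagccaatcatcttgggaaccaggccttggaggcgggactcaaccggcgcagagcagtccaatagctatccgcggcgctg
In Mcm6 a pair of matches on opposite strands overlap in 1 run of capitals. Counted from the start, the match begins at base -29 in Ube2c, at -18 in Cdc20, and at -71 and -15 in Cdk1.

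Genes of the resting bulge were the counterpart. Of 18 measured members of the bulge surface, keratin and niche list, 7 were higher in Het and 1 in anagen II cells. The shares of all measured genes were 4.55% and 7.35%. The median log2 ratio of the list was 0.82 against 0.08 for all genes. Besides Cd34 and Krt14 the 7 were Krt24, Prlr, Npnt, Col17a1 and Angptl7. Krt24, a keratin of the bulge, had 24.1 FPKM in anagen II and 152 in Het cells, 6.31-fold higher in the latter. The prolactin receptor Prlr had 4.49 and 23.8 FPKM. Npnt, the matrix ligand on which the arrector pili muscle anchors at the bulge, had 62.9 and 218 FPKM. The hemidesmosomal collagen Col17a1, which holds basal cells to the basement membrane, had 376 and 973 FPKM. The IGF-binding protein Igfbp5 went the other way, with 43.3 and 18.9 FPKM.

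Set among the other groups, the anagen II value was the lowest of all 7 for Cd34, Krt24, Col17a1 and Prlr. Cd34 had 401 FPKM in first telogen and 883 in second telogen WT cells. Krt24 had 353 FPKM in both of those groups, after rounding. Col17a1 had 1053 and 1422 FPKM there. The Het value of Cd34 lay within the range of the 4 telogen groups, and those of Col17a1 and Krt24 lay below theirs. Ctgf and Postn, also high in the telogen bulge, did not follow. Ctgf had 72.1 FPKM in anagen II and 76.7 in Het cells against 1181 in first telogen cells. Postn had 214 and 260 against 1395.

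Among 17 bulge transcription factors 3 were past the threshold, against 11.9% of all measured genes. Hopx, a homeodomain protein of quiescent bulge cells, had 108 FPKM in anagen II and 353 in Het cells. Tcf7l1, a WNT effector that acts mostly as a repressor, had 45.3 and 15.4 FPKM, and the vitamin D receptor Vdr 274 and 97.4. For both of the latter, the anagen II value was the highest of all 7 groups, in which the next were 16.4 for Tcf7l1 and 135 for Vdr. The remaining 14, Tbx1 (379 and 335 FPKM) and Nfib (108 and 144) among them, were within 2-fold.

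Few genes of the germ and the inner root sheath were past the threshold, with shares near the 7.35% of all genes that were higher in anagen II cells. Of 17 measured hair germ and matrix genes, 2 were higher in anagen II cells and none in Het cells. They were Cdh3, the cadherin of germ and matrix, with 106 and 45.5 FPKM, and Cux1 with 19.2 and 6.09. The median log2 ratio of that list was -0.55, and 14 of the 17 were below 0. Of 11 inner root sheath genes, 1 (Padi3, 19.99 and 5.43 FPKM) was past the threshold. Their median log2 ratio was 0.20, and 8 of the 11 were above 0. The sheath keratins were close to equal, with Krt71 at 59.5 and 59.2 FPKM and Krt25 at 45.8 and 46.2. Those genes were well above telogen in both groups, since Krt71 had 1.81 FPKM in first telogen and 0.641 in second telogen WT cells.

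Hair shaft keratins were higher in Het cells as a list, at lower levels. All 13 measured members had a ratio above 0 and 8 were past the threshold, against 4.55% of all measured genes. The median log2 ratio was 1.06. Krtap8-1, a keratin-associated protein, had 19.9 and 51.4 FPKM, and Krt31 had 3.71 and 8.82. Krt35, an early cortex keratin, had 32.9 and 41.9 FPKM and was within 2-fold. Most of the 8 were near the floor of the filter, since Krt34, Krt33b and Krtap3-1 had under 1 FPKM in anagen II and under 6 in Het cells. With a pseudocount of 5 FPKM, 1 of the 13 was past the threshold and the median was 0.56. Krt6a, Krt82 and Krt85 share 1 row, with 60.7 and 372 FPKM, and cannot be told apart.

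Gap junction genes of the growing outer root sheath separated the groups more widely. Gjb2 (connexin 26; chromosome 14, 57717439 to 57723539, mm9) had 657 FPKM in anagen II and 55.9 in Het cells, 11.7-fold lower in the latter. Gjb6 (connexin 30) had 83.5 and 8.66 FPKM. Both genes were low in first telogen cells, at 6.30 and 0.930 FPKM. Gjb2 had 190 FPKM in anagen iKO cells and at most 1.61 in the second telogen groups, so that both anagen groups of day 30 lay between.

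**Figure D4:**
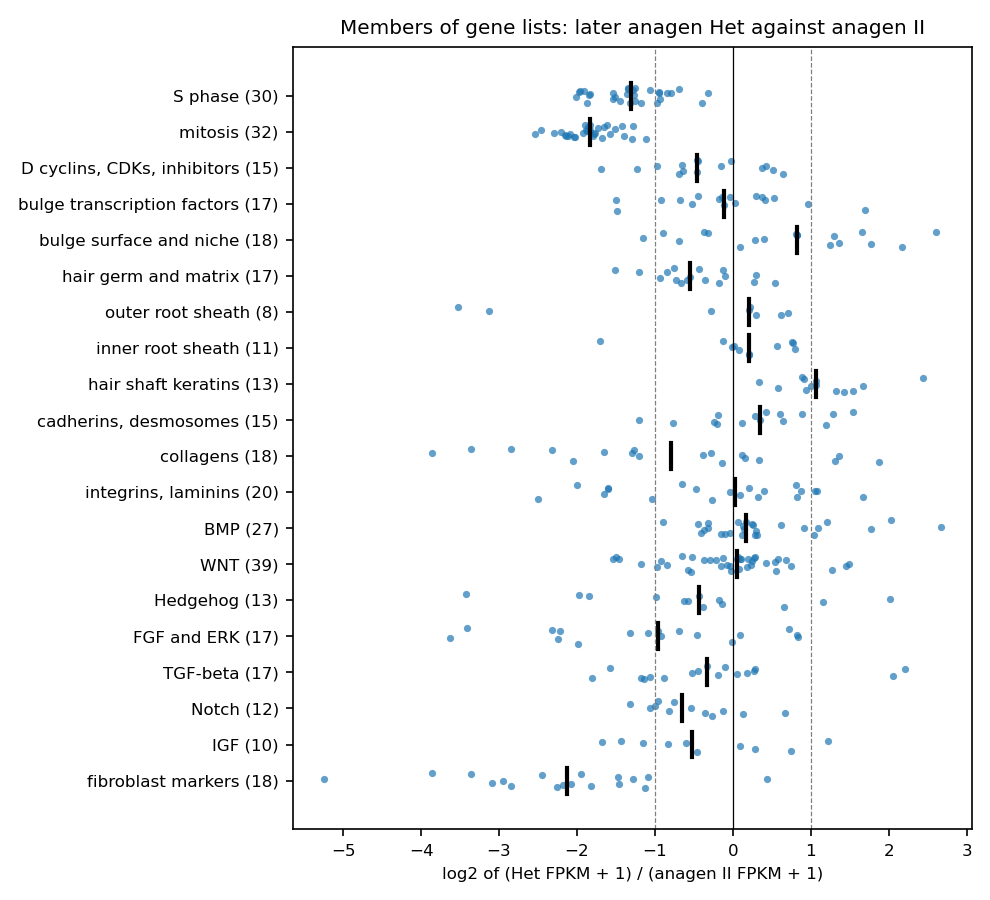
Log2 ratio of Het over anagen II, (Het FPKM + 1) / (anagen II FPKM + 1), for each measured member of 20 gene lists, with the number of members in brackets. Points are genes, black bars are medians and dashed lines are 2-fold. The mitosis, S phase and fibroblast lists have medians below -1, and the hair shaft keratins are the only list shown with a median above 1.

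Hedgehog signalling showed its target genes higher in anagen II cells. In this pathway the ligand binds the receptor Ptch1, which frees Smo to act on the Gli factors, and Ptch1 and Gli1 are themselves induced. Gli1 (chromosome 10, 126759020 to 126778635, mm9) had 55.7 FPKM in anagen II and 13.5 in Het cells, 4.14-fold lower in the latter, and Ptch1 had 20.3 and 4.94. Of 13 measured members 3 were past the threshold in that direction, Gli1 and Ptch1 among them, where 7.35% of all measured genes were. The ligand Shh was low and nearly equal, with 1.69 and 1.37 FPKM, and the anagen II mouse is labelled Shh-Het. Smo had 65.4 and 43.6 FPKM, Gli2 11.7 and 5.41, and Gli3 8.45 and 7.56. The co-receptors, which Hedgehog signalling is known to repress, were the other way round: Cdon had 7.96 and 35.3 FPKM and Gas1 had 117 and 263, both past the threshold, and Boc had 23.9 and 38.1. Dermal cells also carry these targets, and first telogen cells had 18.6 FPKM of Ptch1 and 37.8 of Gli1 beside their higher fibroblast markers. The part of dermal RNA in the Hedgehog values was not tested.

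The FGF and ERK list was lower in Het cells. Of 17 measured members 8 were higher in anagen II cells and none in Het cells, against 7.35% and 4.55% of all measured genes. The median log2 ratio was -0.96. Fgf5, the ligand of outer root sheath cells that ends growth, had 18.7 FPKM in anagen II and 0.601 in Het cells, and at most 0.699 in the other 5 groups. Fgfbp1, which releases FGFs from matrix, had 107 and 22.3 FPKM. Of the receptors, Fgfr3 had 202 and 80.1 FPKM, whereas Fgfr1 (71.0 and 70.4) and Fgfr2 (50.3 and 83.3) were within 2-fold. Genes induced by ERK made up the rest of the 8. The ETS factors Etv4 (58.3 and 4.59 FPKM, 12.7-fold) and Etv5 (25.9 and 4.68) and the phosphatases Dusp6 (54.4 and 13.0) and Dusp4 (5.08 and 0.219) were lower in Het cells, as was the inhibitor Spry1 (19.2 and 8.48). Spry2 (14.4 and 15.4) had a log2 ratio of 0.09. The quiescence ligand Fgf18 had 6.93 and 13.1 FPKM, a log2 ratio of 0.83. Dusp6 was no lower in telogen than in anagen II cells, with 64.7 FPKM in first telogen and 73.0 in second telogen WT cells. Etv4 was lower in both telogen groups, with 7.37 and 4.72 FPKM against 58.3 in anagen II cells.

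BMP signalling, which holds the bulge in rest, showed 6 of 27 measured members higher in Het cells and none higher in anagen II cells. The shares of all measured genes were 4.55% and 7.35%. Those 6 stand on both sides of the pathway. On the side of response, Id2 had 100 FPKM in anagen II and 345 in Het cells, and Id1 (77.5 and 119) and Id3 (178 and 334) were higher within 2-fold. Smad9 had 1.23 and 3.76 FPKM. On the side of antagonists, Grem1 had 13.7 and 92.7 FPKM, Sostdc1 had 193 and 792, and Nog had 7.63 and 16.7. The remaining one was Gdf10, a ligand of the TGF-beta superfamily, with 29.6 and 69.4 FPKM. The classical ligands were low, with Bmp2 at 3.32 and 4.26 FPKM, Bmp4 at 2.24 and 1.51 and Bmp6 at 9.33 and 4.57. The receptors Bmpr1a (43.1 and 51.4) and Bmpr2 (15.6 and 16.4) and the effectors Smad1, Smad5 and Smad4 had log2 ratios between -0.11 and 0.25. The median log2 ratio of the list was 0.16, near that of all genes.

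**Figure D5:**
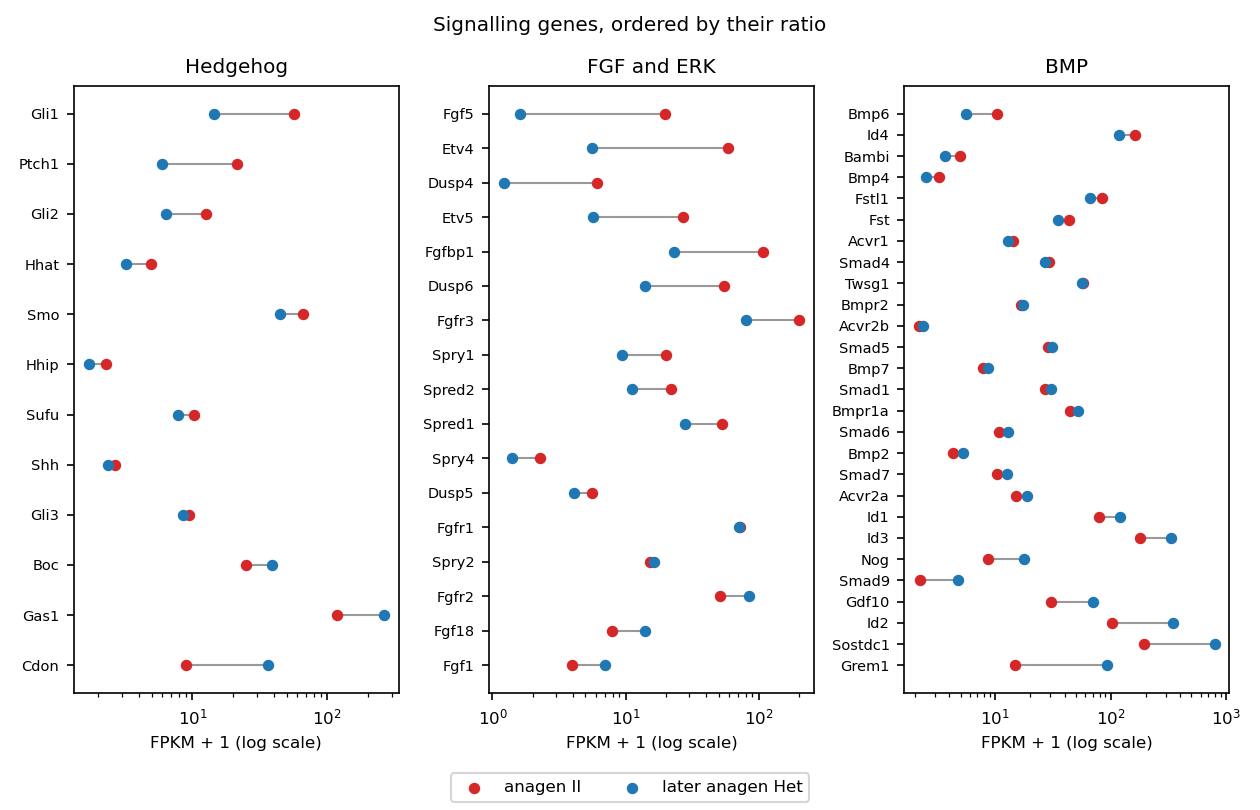
FPKM + 1 (log scale) of measured Hedgehog (12 of 13 shown), FGF and ERK, and BMP genes in anagen II (red) and later anagen Het cells (blue), ordered by their ratio. Gli1, Ptch1, Fgf5 and Etv4 lie far to the right in anagen II cells, whereas Cdon, Gas1, Grem1, Sostdc1 and Id2 lie to the right in Het cells.

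WNT genes showed no common direction. Of 39 measured members 3 were higher in Het and 4 in anagen II cells, against 4.55% and 7.35% of all measured genes. The median log2 ratio was 0.05. Porcn, the enzyme that acylates WNT ligands, had 28.1 FPKM in anagen II and 9.06 in Het cells. The ligand Wnt6 had 6.17 and 1.598 FPKM, and the secreted inhibitor Sfrp5 1.54 and 0.124. In Het cells the receptor Fzd3 (3.36 and 11.3), the secreted protein Dkk3 (62.0 and 171) and the feedback inhibitor Nkd1 (1.23 and 4.36) were higher. The target Axin2 had 3.51 and 3.67 FPKM, with 17.7 in first telogen cells.

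In the TGF-beta list, 5 of 17 measured members were higher in anagen II and 2 in Het cells, against 7.35% and 4.55% of all measured genes. The ligands Tgfb1 (18.9 and 7.81 FPKM) and Tgfb3 (13.4 and 3.81) and the co-receptor Tgfbr3 (9.28 and 1.94) were higher in anagen II cells, as was Ltbp3. Tgfb2, the ligand known from dermal papilla cells, had 1.10 and 1.17 FPKM. Tgfbi, a secreted adhesion protein, had 93.3 and 433 FPKM, and the latent binding protein Ltbp2 had 7.05 and 32.5. Both were thus more than 4-fold higher in Het cells.

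Against 7.35% of all measured genes, 3 of 12 measured Notch genes were higher in anagen II cells. They were the receptor Notch1 (40.4 and 19.6 FPKM), the glycosyltransferase Lfng (62.7 and 29.3) and the feedback gene Nrarp (37.6 and 14.5). The target Hes1 (59.7 and 49.3) and the ligands Jag1 (47.2 and 36.5) and Jag2 (130 and 89.0) were within 2-fold. Of 10 IGF genes 3 were higher in anagen II and 1 in Het cells, all of them binding proteins. The shares of all measured genes were 7.35% and 4.55%. Igfbp4 had 399 and 124 FPKM, and Igfbp2 had 8.59 and 2.54. Igfbp3, which had 108 and 254 FPKM, was higher in Het cells, and the receptor Igf1r had 9.82 and 5.08.

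Matrix and adhesion genes were past the threshold in both directions. Of 18 collagens 9 were higher in anagen II and 3 in Het cells, against 7.35% and 4.55% of all measured genes. Fibrillar Col1a1, Col1a2 (287 and 27.2 FPKM) and Col3a1 (213 and 28.7) are among the fibroblast markers above. Of 20 measured integrins and laminins 6 were higher in anagen II and 3 in Het cells, against the same shares of all genes. The median log2 ratio of that list was 0.02. Basement membrane genes higher in anagen II cells included Col4a1 (176 and 55.2 FPKM), Lamb1 (105 and 17.8), Lama5 (61.0 and 14.5) and Lamc1 (51.5 and 16.3). First telogen cells had 39.0 FPKM of Col4a1 and 10.7 of Lamb1. Het cells had more Lama3, a chain of the laminin under basal keratinocytes (17.5 and 37.4 FPKM), and more Itgb6 (23.5 and 77.1). They also had more of the desmosomal genes Dsg3 (37.6 and 111), Dsc3 (148 and 341) and Dsp (137 and 336). Among 15 measured cadherins, catenins and desmosomal genes, 3 were higher in Het and 1 in anagen II cells, with a median log2 ratio of 0.35. No member of the claudin and tight junction list was past the threshold among 13 measured. That list leaves out Cldn5, which is given above with the endothelial markers.

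Among genes with at least 10 FPKM in anagen II and 1 in Het cells, Acta2 and Tagln had the largest ratios in favour of anagen II cells. Acta2, smooth muscle actin, had 254 FPKM in anagen II and 6.18 in Het cells, 41.1-fold lower in the latter. The actin-binding Tagln had 369 and 12.7 FPKM. The smooth muscle genes Myh11 and Des were under 1 FPKM in both groups. The first telogen library had 16.8 FPKM of Acta2 and 17.5 of Tagln. Edn2, endothelin 2, had 74.4 and 3.59 FPKM. Angptl4, a lipase inhibitor, had 235 and 10.2 FPKM, and Spon1, a matrix protein, 37.5 and 1.64. The past-threshold genes with under 1 FPKM in Het cells were led by Dio3os, which shares its row with Mir1247, at 265 and 0.181 FPKM. Its neighbour Dio3, the deiodinase that inactivates thyroid hormone, had 37.4 and 0.429 FPKM, and Fbln7, a matrix fibulin, 14.8 and 0.337. Dio3 and Dio3os were at most 0.612 FPKM in each of the other 6 groups, Het included.

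The amino acid transporter Slc7a8 had 340 FPKM in anagen II and 25.1 in Het cells, and the glutamate transporter Slc1a3, described in progenitors of the isthmus and sheath, 56.0 and 3.58. Redox and lipid enzymes were also among the 15 with the largest ratios. Glutathione reductase (Gsr) had 115 and 9.14 FPKM, gamma-glutamyl transferase (Ggt1) 70.5 and 4.60, and the desaturase Fads2 57.3 and 3.49. Cpxm1 had 36.5 and 2.30 FPKM. Fads2, Ggt1, Slc1a3, Gsr and Cpxm1 were under 10 FPKM in each of the other 6 groups.

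On the Het side, S100a4, a calcium-binding protein of the bulge, had 92.3 FPKM in anagen II and 1198 in Het cells, 13.0-fold higher in the latter. It lies on chromosome 3 from 90407692 to 90409967 in mm9. Spink2, a protease inhibitor, had 4.65 and 71.7 FPKM, and the serine protease Prss23 17.3 and 152. Serpinb3b had 1.74 and 43.9 FPKM. The fructose transporter Slc2a5 had 2.00 and 22.5 FPKM, and H60c, a ligand of an immune receptor, 12.7 and 82.4. S100a4, Spink2 and Prss23 were lowest in the anagen II library of all 7 groups, and S100a4 reached 4095 FPKM in second telogen WT cells.

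Some of the highest ratios belonged to genes whose level jumped between single groups. Ubn2 had 3.85 FPKM in anagen II and 132 in Het cells, but between 4.63 and 7.59 in the other 5 groups. Prmt2 had 11.4 and 170 FPKM, with 156 in first telogen and 11.96 in anagen iKO cells. Foxj2 had 184 FPKM in anagen II and 8.36 in Het cells, with 193 in second telogen cKO cells and at most 17.6 in the remaining groups. Parp1 had 350 and 20.2 FPKM, with 163 in anagen iKO and 15.03 in first telogen cells. Cwc22, Tnrc6b and Zfp949, and the row of A330023F24Rik, Mir29b-2 and Mir29c, also varied widely between groups of the same stage. The reads behind these rows cannot be seen in the table.

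Immediate early, clock and glucocorticoid-induced genes were past the threshold more often than the 11.9% of all genes, whereas heat shock chaperones were not. Of 22 immediate early genes 2 were higher in Het cells (Fosb and Dusp1) and 2 in anagen II cells (Egr3 and Ier5). Fos had 237 and 474 FPKM, just inside the threshold, against 2728 in first telogen cells. Of 15 heat shock chaperones 1 was past the threshold, Hspb8 with 48.6 and 108 FPKM. Clock genes were divided 4 and 4 of 18, with Per1 at 33.2 and 6.42 FPKM. The labels do not state the hour of collection. Of 11 glucocorticoid-induced genes 4 were higher in anagen II cells and none in Het cells, with Pdk4 at 11.8 and 0.476 FPKM and Fkbp5 at 7.05 and 1.61. Of 11 steroid and hormone receptors, the growth hormone receptor Ghr had 32.2 and 4.17 FPKM and was 7.74-fold lower in Het cells, opposite to Prlr. Glycolysis genes were 3 higher in Het and 2 in anagen II cells of 24, with Pfkp at 25.6 and 72.8 FPKM.

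A pair of rows bears on RNA other than messenger RNA. Rn45s, the ribosomal RNA precursor, had 3405 FPKM in anagen II and 1029 in Het cells, and Lars2, a mitochondrial tRNA synthetase whose row can take up reads of mitochondrial ribosomal RNA, had 1084 and 291. Whether it did so here was not tested. Both rows had a failed estimate in other pairs of the table and are listed at 0 in first telogen cells. The precursor is not polyadenylated. The part of this difference in the other ratios was not tested.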

How the data were processed

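RNA of sorted hair follicle stem cells was sequenced by the authors. TopHat, Cufflinks, Cuffdiff and build mm9 are named in the submitters' processing notes, without versions or settings. The deposited joint table gives 1 FPKM value per group for 7 groups and 21 pairs, and only FPKM was used. A group's FPKM was the same in all its pairs. No p-value of the authors was used. Whole reads could not be recovered from the FPKM values. Coordinates were turned to 1-based positions.

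In the pair used, 7 rows with a failed estimate (Krt5, Krt15 and Lamb3 among them) and 1074 small RNA rows were left out, and a symbol on several rows kept the row with the highest mean. The measure was log2 of (Het FPKM + 1) / (anagen II FPKM + 1) for genes with at least 1 FPKM in either group, past the threshold at 2-fold. Plain folds are given where both groups reached 1 FPKM. Described beside the lists were, per direction, the 15 genes with the largest ratio (at least 10 FPKM in the higher and 1 in the lower group), the 6 most abundant with under 1 FPKM in the lower group, and the highest and lowest members of 42 gene lists. Tcf7l1, Acta2 and other genes in several lists count in each. A few genes that this rule or a list selects are not reported here. Members and lists were chosen with earlier results of these data known. The fold rule was tested on simulated data. Python 3.11.15, pandas 2.3.3, numpy 2.4.6 and matplotlib 3.10.9 were used.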

Additional observations from a re-analysis of the deposited data

How the results depend on the processing

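The table gives 1 value per group, so no library could be left out, no error can be given and small ratios cannot be told from noise. No paired analysis was possible because the table gives 1 value per group and no result comes from a test. The main counts were 558 genes higher in Het and 900 in anagen II cells. With a pseudocount of 0.1 FPKM, 881 genes were higher in Het and 1233 in anagen II cells. With 5 FPKM they were 258 and 424. At 1.5-fold they were 1650 and 1749, and at 4-fold 75 and 163. Under the other 8 settings, both counts stayed within 1.5 times the main ones. These were no filter, both stricter filters, centring on the median, each row counted on its own, small RNA symbols kept, chromosomes X and Y left out, and rows that also name a small RNA left out, the last chosen after seeing the data. The setting without a filter could only repeat the main counts, because a gene under 1 FPKM in both groups cannot reach 2-fold on this scale. Over all measured genes, more were higher in anagen II cells under all these settings, with shares from 51.5% at 1.5-fold to 68.9% after centring.

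For the named genes, all 168 values over 4 settings kept their direction and their side of the threshold. These genes were chosen from the same values for large ratios or high levels past the threshold, so the outcome was largely fixed. Of 336 counts of list members 297 stayed within 1.5 times, but those without a filter could not change, for the reason given above. No list median of 1 or more changed sign. Without a filter, the median moved from -2.49 to -0.23 for muscle, from -1.06 to -0.19 for adipocyte and from 1.78 to 0.13 for sex-linked genes. The medians of the mitosis, S phase, hair shaft and fibroblast lists stayed at 1 or more in size there. With 5 FPKM, 13 of 30 S phase genes were past the threshold and the median was -0.92. The fibroblast count was then 11 of 18. After centring, 5 of 13 hair shaft keratins were past it.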

Other observations

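The families below were taken whole by their symbols after the values were seen, and are given as values. Of all measured genes, 4.55% were higher in Het and 7.35% in anagen II cells. Amino acid transporters of the Slc1a, Slc3a and Slc7a families were higher in anagen II cells in 9 of 12 measured genes and in Het cells in none, with a median log2 ratio of -1.62. Besides Slc7a8 and Slc1a3, Slc3a2, the shared heavy chain of several of these carriers, had 403 FPKM in anagen II and 122 in Het cells. Slc7a1, the cationic amino acid carrier, had 102 and 14.1 FPKM, and Slc7a5, the large neutral amino acid carrier, 14.9 and 3.65. The 3 genes not past the threshold were Slc1a6, Slc7a4 and Slc7a6, and the last had 34.2 and 54.1 FPKM. In first telogen cells Slc7a1 had 3.49 and Slc3a2 104 FPKM.

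Some contractile genes were higher in anagen II cells. Of 13 measured tropomyosin, calponin, transgelin, smoothelin and light chain genes 6, Tagln among them, were higher there, none was higher in Het cells, and 7 were within 2-fold. Myl9, a regulatory myosin light chain, had 295 and 50.1 FPKM, and Smtn, smoothelin, 177 and 50.7. Tpm1 had 576 and 259 FPKM, and Tagln2 was close to equal at 502 and 525. In first telogen cells Myl9 had 33.1 and Smtn 16.5 FPKM. Gja1 (connexin 43) had 949 FPKM in anagen II, 351 in Het and 119 in first telogen cells, whereas the epidermal connexin Gjb5 was higher in Het cells, at 10.6 and 34.4 FPKM.

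Of 6 measured H2af histone genes 2 were higher in anagen II cells, and of 7 Hmgb and Hmgn genes 3. None of either family was higher in Het cells, and the median log2 ratios were -0.56 and -0.39. H2afx had 94.1 FPKM in anagen II and 17.6 in Het cells, H2afz had 442 and 171, and the architectural proteins Hmgb2, Hmgb3 and Hmgn2 had 146 and 44.8, 75.2 and 14.1, and 339 and 103. Hmgb1 (366 and 289), Hmgn1 (392 and 317), Hmgn3 (52.6 and 54.2), Hmgn5, H2afv, H2afy, H2afy2 and H2afj (28.4 and 34.0) were within 2-fold.

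On the Het side, 6 of 10 measured Serpinb protease inhibitors were higher and none lower, with a median log2 ratio of 1.38. Serpinb8 had 20.6 and 93.9 FPKM and Serpinb5 had 164 and 349. Of 12 S100 genes 4 were higher in Het cells, with S100a11 at 531 and 1328 FPKM, and 1, S100b, in anagen II cells. Annexins did not move together. Anxa8 had 140 and 660 FPKM, whereas Anxa3 had 46.5 and 4.09. Cav1, the main caveolin, had 76.4 and 235 FPKM, and Duox1 and its maturation factor Duoxa1, which make hydrogen peroxide at the cell surface, had 2.12 and 16.4, and 13.2 and 66.3. In second telogen WT cells Anxa8 had 1780, Cav1 338 and Duoxa1 152 FPKM.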
